A study of Mus musculus with 24 samples.

Results

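Menin and the promoter mark H3K4me3 were compared with each other inside each of 2 mouse melanoma cell lines, peak by peak and gene by gene. The comparison used the Menin and H3K4me3 peak lists of line 493, labelled Kmt2d Mutant, and of line 971, labelled Kmt2d WT. These are 4 of 24 samples and hold 61358 of the 197727 peaks of the 22 samples with a list. Members were taken by label and not by any measured value. Both lines were grown in DMEM/F12 with serum and antibiotics, without any treatment named in the labels, and were profiled by CUT&RUN, a method that cuts out and sequences DNA next to the site an antibody recognises. Each line is 1 culture of 1 line, and each target has 1 library per line. No replicate error can therefore be given, no test was run, and the line and its Kmt2d genotype cannot be told apart. Intervals below are Wilson 95% intervals, which cover counting error only.

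Menin, encoded by Men1, is a scaffold subunit of the KMT2A and KMT2B histone methyltransferase complexes, which place methyl groups on lysine 4 of histone H3. The trimethylated form, H3K4me3, marks active and CpG-rich gene starts and is also placed by SETD1A and SETD1B complexes that do not contain Menin. KMT2D belongs to a different complex, with UTX, and acts mainly at enhancers. Peak lists do not read the Kmt2d mutation itself.

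In the mutant line, 16773 Menin peaks with a median width of 543 bp stood beside 16438 H3K4me3 peaks with a median width of 1273 bp. In the WT line, 13481 Menin peaks with a median of 588 bp stood beside 14666 H3K4me3 peaks with a median of 1323 bp. Fold enrichment is the authors' value at the summit, the highest point of a peak, over the local background. Its median was 6.54 for Menin and 16.5 for H3K4me3 in the mutant line, and 6.64 for Menin and 11.7 for H3K4me3 in the WT line. The depth at which a list was called, reconstructed from the deposited values, was nearly equal for both targets inside a line, at 2.20 M fragments for Menin and 2.21 M for H3K4me3 in the mutant line and 1.18 M and 1.19 M for them in the WT line. Between the lines the ratio of mutant to WT depth was 1.86, so the lists of the 2 lines were called at unequal depth. The control and scaling of the caller are not known, and the median number of fragments at the summit differed between targets, at 6.97 for Menin and 19.1 for H3K4me3 in the mutant line and 6.62 and 12.2 in the WT line.

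The labelled cell type was checked against its markers at gene ends. A gene-end peak is a peak within 1 kb of either end of a gene. Of 10 melanocyte lineage markers, 4 had H3K4me3 there in the mutant line (Mitf, Sox10, Pmel and Erbb3) and 3 in the WT line (Mitf, Pmel and Erbb3). Tyr, Tyrp1, Dct, Mlana, Kit and Ednrb had none in either line. Of 7 fibroblast markers, 3 carried H3K4me3 in each line (Pdgfra, Pdgfrb and Col1a1), as did 1 of 4 keratinocyte and 1 of 4 endothelial markers and 0 of 4 blood cell markers. The part of other cell states in the results was not tested.

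The DNA just before the start of 4 genes shows what the 2 classes compared here look like in sequence. Fign and Bpgm ranked highest by Menin fold enrichment in both lines together among genes with both marks over the printed bases. Ctsd and Clptm1 ranked highest by H3K4me3 fold enrichment in both lines together among genes with H3K4me3 there and no Menin peak within 5 kb of the gene in either line. The choice was made after their values were seen and was limited to genes whose printed bases lie outside every annotated gene. Each sequence is the 250 bases before the RefSeq start (GRCm38.p6, the assembly of mm10), read 5′ to 3′ on the strand of the gene. Capitals mark every CpG, the dinucleotide that KMT2A and KMT2B are known to bind when it is unmethylated.
Fign, chr2:64098039-64098288, minus strand: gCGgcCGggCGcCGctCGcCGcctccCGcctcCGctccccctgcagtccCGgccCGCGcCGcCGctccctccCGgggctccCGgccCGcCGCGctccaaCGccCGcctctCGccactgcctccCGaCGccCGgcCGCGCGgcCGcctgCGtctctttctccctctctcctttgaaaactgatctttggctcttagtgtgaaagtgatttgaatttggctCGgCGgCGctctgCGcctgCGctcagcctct
Bpgm, chr6:34476106-34476355, plus strand: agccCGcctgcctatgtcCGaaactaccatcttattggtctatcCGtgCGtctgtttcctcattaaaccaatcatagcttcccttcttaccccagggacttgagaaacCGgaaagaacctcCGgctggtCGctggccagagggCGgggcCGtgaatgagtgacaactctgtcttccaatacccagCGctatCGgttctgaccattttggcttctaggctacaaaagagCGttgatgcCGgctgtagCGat
Ctsd, chr7:142387828-142388077, minus strand: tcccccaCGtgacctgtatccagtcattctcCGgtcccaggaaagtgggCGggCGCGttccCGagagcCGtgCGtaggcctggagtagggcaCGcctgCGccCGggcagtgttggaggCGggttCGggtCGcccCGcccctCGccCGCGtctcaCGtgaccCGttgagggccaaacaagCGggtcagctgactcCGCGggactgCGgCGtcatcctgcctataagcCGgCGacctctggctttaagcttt
Clptm1, chr7:19665031-19665280, minus strand: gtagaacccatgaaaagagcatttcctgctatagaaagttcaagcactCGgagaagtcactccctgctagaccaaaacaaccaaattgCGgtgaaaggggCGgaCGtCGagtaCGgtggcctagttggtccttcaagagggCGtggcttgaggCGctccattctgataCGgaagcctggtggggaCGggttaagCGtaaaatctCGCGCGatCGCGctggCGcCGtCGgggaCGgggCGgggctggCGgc

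These stretches hold 34 CpG in Fign, 14 in Bpgm, 27 in Ctsd and 22 in Clptm1, so CpG number did not separate the 2 classes among them. Bpgm, which encodes the erythrocyte enzyme bisphosphoglycerate mutase, had Menin at 31.7-fold and H3K4me3 at 21.8-fold in the mutant line, and Menin at 30.6-fold and H3K4me3 at 16.0-fold in the WT line. Menin covered 78.5% of its widest H3K4me3 peak in the mutant line and 75.1% in the WT line. Ctsd, which encodes the lysosomal protease cathepsin D, had H3K4me3 at 51.5-fold over 1977 bp in the mutant line and at 28.4-fold over 2182 bp in the WT line. Clptm1, which encodes a membrane protein, had H3K4me3 at 34.6-fold over 2379 bp in the mutant line and at 24.1-fold over 2594 bp in the WT line. A Menin peak was therefore missing at some gene ends where H3K4me3 was wide and strong.

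Menin lay mostly inside H3K4me3, while H3K4me3 extended well beyond Menin. In the mutant line 82.5% of Menin peaks overlapped an H3K4me3 peak (13841 of 16773, interval 81.9 to 83.1%), against 78.9% in the WT line (10633 of 13481, 78.2 to 79.6%). In the other direction, 62.0% of H3K4me3 peaks overlapped Menin in the mutant line (10193 of 16438, 61.3 to 62.7%), against 58.3% in the WT line (8555 of 14666, 57.5 to 59.1%). With the mutant lists thinned to the depth of the WT lists, 54.9% of mutant H3K4me3 peaks had Menin, under the WT value. With the 13481 top peaks of each list the order stayed, at 62.6% in the mutant line and 61.0% in the WT line. Thinning dropped whole peaks and did not call peaks again, so it cannot show how far depth sets this order. In both lines the share of Menin peaks with H3K4me3 was larger than the share of H3K4me3 peaks with Menin under every alternative run.

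How much of a peak was covered separated the targets further. Of the mutant line's Menin peaks, 48.2% lay wholly inside H3K4me3, whereas 5.82% of H3K4me3 peaks lay wholly inside Menin. The WT shares were 44.2% and 5.56%. Menin peaks were the narrower ones, with medians of 543 bp against 1273 bp in the mutant line and 588 bp against 1323 bp in the WT line. A narrow peak can lie inside a wide one more easily than the reverse. The part of width in these shares was not tested. Where the targets met, Menin covered a median of 58.7% of the H3K4me3 peak in the mutant line, with quartiles of 36.4 and 80.9%, and 53.5% in the WT line, with quartiles of 32.5 and 77.4%. Summed over bases, Menin peaks covered 10.6 Mb of the 24.0 Mb of H3K4me3 in the mutant line, or 44.4%, and 8.47 Mb of the 22.3 Mb in the WT line, or 38.0%. The highest point of the H3K4me3 peak fell inside a Menin peak for 43.1% of H3K4me3 peaks in the mutant line and 38.1% in the WT line.

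**Figure D1:**
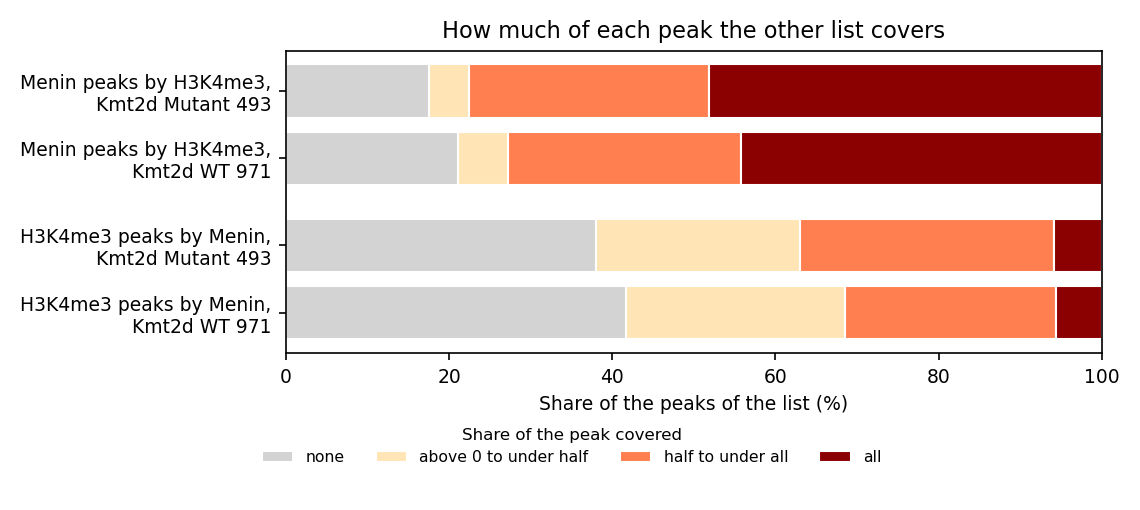
Share of the peaks of each list (horizontal axis, percent) by how much of the peak the other target of the same line covers, with 1 bar per list. Menin peaks are wholly covered in 48.2% (mutant) and 44.2% (WT) of cases, and H3K4me3 peaks in 5.82% (mutant) and 5.56% (WT).

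H3K4me3 peaks with Menin were wider and stronger than those without it. The median width was 1668 bp with Menin and 700 bp without Menin in the mutant line, a ratio of 2.38. It was 1730 bp with Menin and 878 bp without Menin in the WT line, a ratio of 1.97. The middle 50% of widths ran from 1116 to 2342 bp with Menin and from 373 to 1138 bp without Menin in the mutant line, and from 1112 to 2444 bp with Menin and from 470 to 1352 bp without Menin in the WT line. The classes overlap in both lines, with the widest 5% of peaks without Menin starting at 2036 bp in the mutant line and 2272 bp in the WT line. Fold enrichment had a median of 22.4 with Menin and 8.04 without Menin in the mutant line, and 14.7 with Menin and 7.56 without Menin in the WT line. The thinned mutant lists gave a width ratio of 2.09.

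The share of H3K4me3 peaks with Menin climbed with width. Peaks were ranked by width and divided into 10 classes of equal size. In the narrowest class of the mutant line, where peaks run from 183 to 334 bp, 25.5% had Menin. In the widest class, from 2758 bp upward, 94.7% had it. The same classes of the WT line had 27.1% and 92.1%. A wider peak offers more bases to touch, and the part of this in the trend was not tested. The mean share of the peak that Menin covered, peaks without Menin included, was 20.9% in the narrowest and 54.9% in the widest class of the mutant line and 22.1% and 48.1% in those classes of the WT line. Among peaks that Menin touched the order was the opposite, at 81.7% in the narrowest and 58.0% in the widest class of the mutant line and 81.3% and 52.2% in the WT line. The widest class held a mean of 2.03 Menin peaks per H3K4me3 peak in the mutant line and 1.69 in the WT line, against 0.255 and 0.271 in the narrowest. Of all H3K4me3 peaks, 18.9% in the mutant line and 13.6% in the WT line overlapped at least 2 Menin peaks. The 30 peaks of the mutant line that overlapped at least 5 had a median width of 6136 bp.

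**Figure D2:**
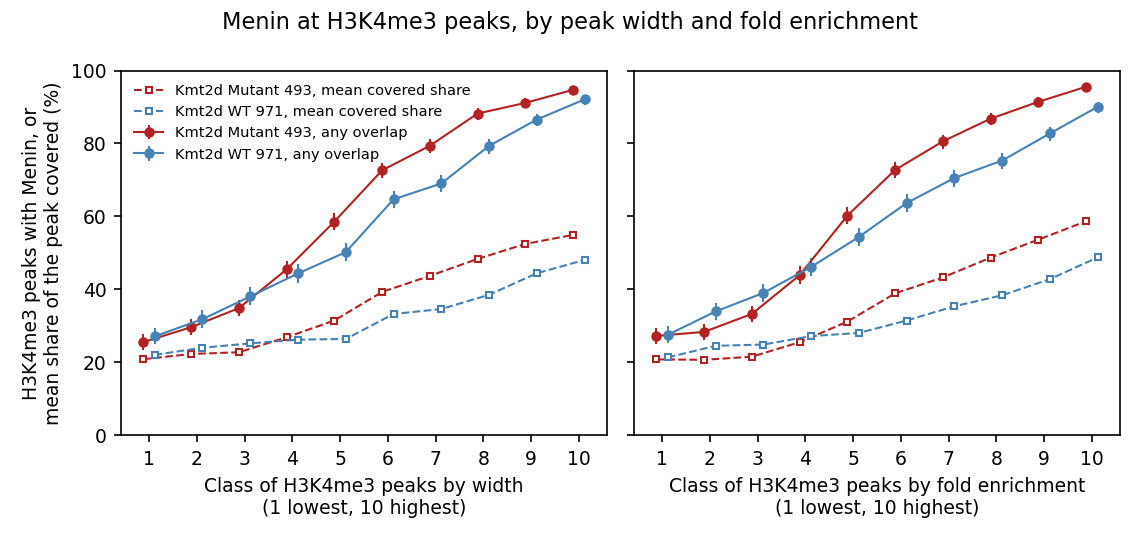
Share of H3K4me3 peaks with Menin (filled points, with Wilson 95% intervals) and mean share of the peak that Menin covers (open squares), in percent, by class of width (left) and of fold enrichment (right), 10 classes in each line. Over the classes of width the share with Menin runs from 25.5% to 94.7% in the mutant line and from 27.1% to 92.1% in the WT line.

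Much of the width difference moved with signal strength, and a part of it did not. With 10 classes of fold enrichment, 27.3% of peaks of the weakest class had Menin in the mutant line and 27.5% in the WT line. In the strongest class the shares were 95.6% and 90.0%. Inside single classes, the ratio of the median widths with and without Menin ran from 1.02 to 1.31 in the mutant line and from 1.09 to 1.32 in the WT line, above 1 in every class of both lines. With the classes weighted alike, the geometric mean width was 1176 bp with Menin and 969 bp without Menin in the mutant line, compared with 1511 bp and 668 bp before that weighting. The WT values were 1276 bp with Menin and 1045 bp without Menin, compared with 1556 bp and 810 bp. At like fold enrichment too, a wider peak offers more bases to touch. The part of this in the remaining difference was not tested.

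**Figure D3:**
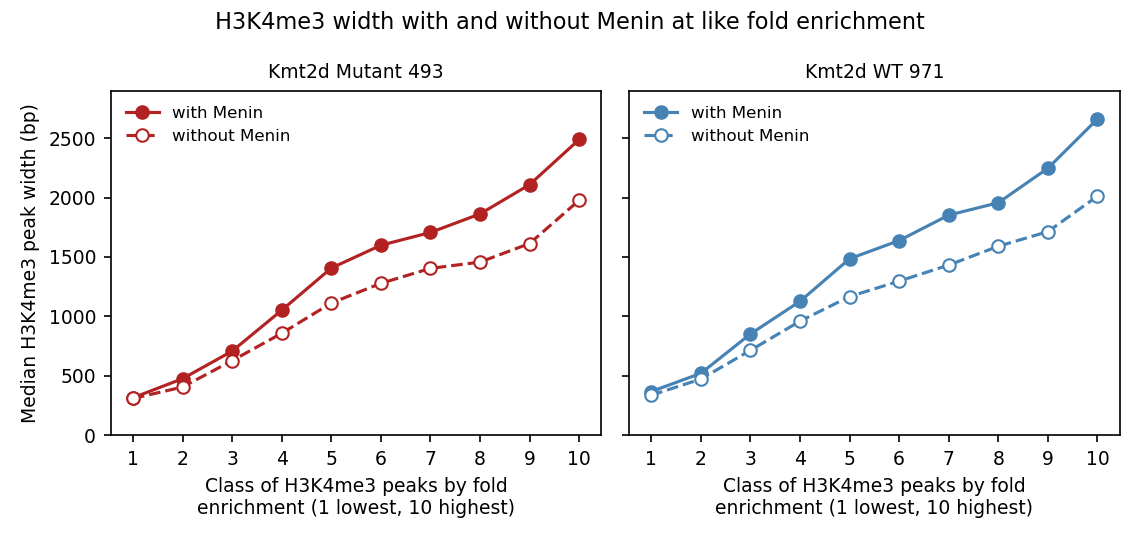
Median width of H3K4me3 peaks (vertical axis, bp) with Menin (filled points) and without Menin (open points) in each of 10 classes of H3K4me3 fold enrichment, mutant line left and WT line right. The points with Menin lie above those without Menin in every class, with ratios from 1.02 to 1.31 in the mutant line and from 1.09 to 1.32 in the WT line.

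The share with Menin was larger at gene ends than far from them in both lines. At gene ends 68.0% of H3K4me3 peaks had Menin in the mutant line and 61.4% in the WT line. Beyond 5 kb from any gene end the shares were 48.4% and 51.1%. The width ratio was similar in both settings, at 2.01 at gene ends and 2.14 beyond 5 kb in the mutant line, and 1.79 and 1.95 in the WT line. Before weighting by strength, peaks with Menin lay at gene ends more often than peaks without Menin, at 74.7% against 57.3% in the mutant line and 74.4% against 65.4% in the WT line. At like fold enrichment the order turned, with 63.6% of peaks with Menin and 69.3% of peaks without Menin at gene ends in the mutant line, and 66.6% and 72.9% in the WT line.

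Menin peaks that lacked H3K4me3 were narrow and mostly far from gene ends. The median width was 639 bp with H3K4me3 and 310 bp without it in the mutant line, and 689 bp and 379 bp in the WT line. Beyond 5 kb from any gene end lay 14.7% of Menin peaks with H3K4me3 and 60.6% of those without it in the mutant line, and 15.8% and 65.0% in the WT line. At gene ends, 96.9% of Menin peaks overlapped H3K4me3 in the mutant line and 95.1% in the WT line.

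The summits of Menin and H3K4me3 did not coincide. For Menin summits inside an H3K4me3 peak, the median distance to the summit of that peak was 410 bp in the mutant line and 403 bp in the WT line, and 28.8% and 29.5% lay within 200 bp. Around the annotated starts of genes with both marks, the strongest Menin summit had a median position of 34 bp after the start in the mutant line and, at -8 bp, just before it in the WT line. The strongest H3K4me3 summit lay 340 bp inside the gene in the mutant line and 451 bp inside it in the WT line. Menin summits lay before the start in 45.8% of 6486 genes of the mutant line and 51.2% of 5302 genes of the WT line, whereas H3K4me3 summits did so in 16.0% and 16.8%.

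Menin summits had a main crest and a lower second one. The 100 bp just before the start held 14.9% of the Menin summits of the mutant line and 14.3% of those of the WT line, but 0.608% and 0.518% of the H3K4me3 summits. Between the 2 crests, from 300 to 500 bp inside the gene, the share of Menin summits was low, at 2.42% and 2.44% per 100 bp in the mutant line and 2.34% and 2.13% in the WT line. This is where H3K4me3 summits were frequent, with 13.1% between 300 and 400 bp in the mutant line and 11.1% in the WT line. Farther in, between 800 and 900 bp, Menin summits were again at 4.21% in the mutant line and 3.58% in the WT line.

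**Figure D4:**
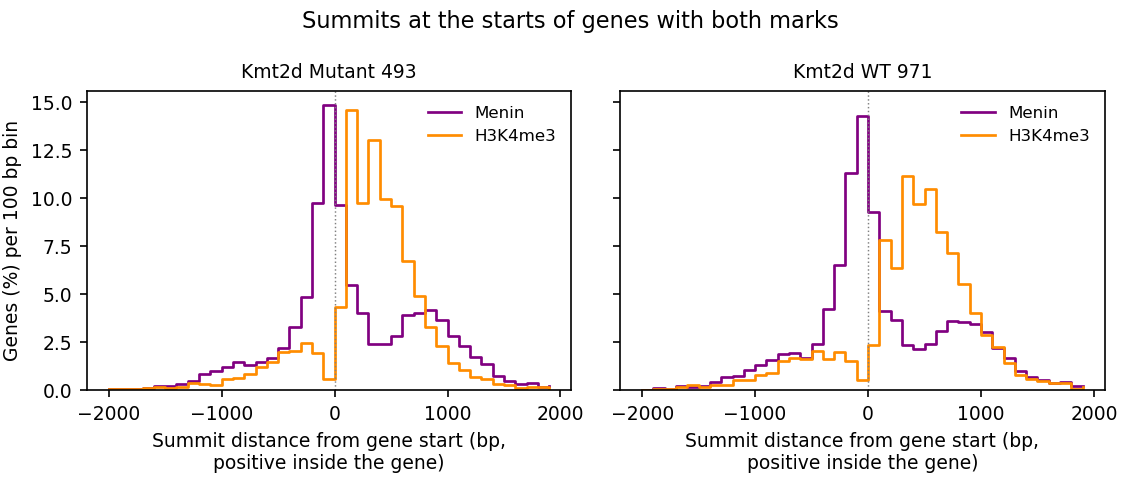
Share of genes with both marks (vertical axis, percent per 100 bp) by the position of the strongest Menin and H3K4me3 summit relative to the gene start (horizontal axis, bp), mutant line left and WT line right. Menin has its crest in the 100 bp before the start (14.9% and 14.3%) and H3K4me3 has its own inside the gene.

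Among 21900 protein-coding genes, Menin without H3K4me3 was rare and H3K4me3 without Menin was common. In the mutant line 8260 genes had both marks at a gene end (37.7%), 44 had Menin only (0.201%) and 3522 had H3K4me3 only (16.1%). In the WT line 6823 genes had both (31.2%), 88 had Menin only (0.402%) and 3964 had H3K4me3 only (18.1%). Menin stood at the ends of 37.9% of genes in the mutant line and 31.6% in the WT line, and H3K4me3 at those of 53.8% and 49.3%. Of the genes with Menin, 99.5% also had H3K4me3 in the mutant line and 98.7% in the WT line. Of the genes with H3K4me3, 70.1% had Menin in the mutant line (interval 69.3 to 70.9%) and 63.3% in the WT line (62.3 to 64.2%). The thinned mutant lists gave 61.9%, below the WT value. The 13481 top peaks of each list gave 66.6% in the mutant line and 64.4% in the WT line. How far depth sets this order was not tested. Where 1 peak reaches the ends of neighbouring genes, each of them is counted.

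Genes with both marks had H3K4me3 of 26.1-fold and 1933 bp in the median in the mutant line, against 12.6-fold and 1044 bp for genes with H3K4me3 only. The WT values were 16.9-fold and 2023 bp with both, against 10.9-fold and 1214 bp. The median length of the gene itself was alike, at 23.1 kb with both marks and 22.6 kb with H3K4me3 only in the mutant line, and 23.6 kb and 21.6 kb in the WT line. On the X chromosome 57.6% of H3K4me3 genes had Menin in the mutant line (209 of 363, 52.4 to 62.6%) and 41.0% in the WT line (128 of 312, 35.7 to 46.6%). On autosomes the shares were 70.5% and 63.9%.

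The share of H3K4me3 genes with Menin was larger where the promoter held more CpG. In the 300 bases around the start, genes with H3K4me3 and at most 4 CpG had Menin in 51.8% of cases in the mutant line and 46.1% in the WT line. With 5 to 9 CpG the shares were 56.8% and 48.7%, with 10 to 19 CpG they were 68.7% and 59.9%, and with at least 20 CpG they were 75.7% and 68.5%. The order held inside 3 classes of H3K4me3 fold enrichment. In the weakest class, genes with at least 10 CpG had Menin in 42.3% of cases against 34.4% for genes with fewer in the mutant line, and 39.6% against 32.4% in the WT line. In the strongest class the values were 92.6% against 79.9% in the mutant line and 84.1% against 70.1% in the WT line.

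The lines were alike at most genes. Of 10668 genes with H3K4me3 in both lines, 60.3% had Menin in both, 15.9% in the mutant line only, 3.45% in the WT line only and 20.3% in neither. The mutant lists were called at 1.86 times the WT depth, and this split was not repeated on the thinned lists. How far depth enters it was not tested. The widest H3K4me3 peak was wider in the mutant line at 47.4% of the genes with Menin in both lines. It was wider there at 65.3% of the 1696 genes with Menin in the mutant line only, and at 37.8% of the 368 genes with Menin in the WT line only. Genes with Menin in neither line came close to the first of these 2 groups, at 63.3%, so a wider H3K4me3 peak in the mutant line was not particular to genes with Menin there.

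For each named gene, fold enrichment is that of the strongest peak within 1 kb of either gene end, and width that of the widest. The covered share counts all Menin on the widest H3K4me3 peak, so it can belong to another Menin peak than the fold enrichment. At Erbb3 in the mutant line, Menin was at 18.1-fold and 0% of the widest H3K4me3 peak was covered. At the 10 genes with the highest Menin fold enrichment in the mutant line, Menin covered 67.4% or more of the widest H3K4me3 peak there. The highest value was at Fign, which encodes a microtubule-severing ATPase. Menin there was at 52.9-fold in the mutant line and 27.5-fold in the WT line, and 1 Menin peak covered all of an H3K4me3 peak of 4818 bp (chr2:64094431-64099248) in the mutant line and of 9852 bp (chr2:64089272-64099123) in the WT line. Bhlhe22, a transcription factor of neurons, had Menin at 38.0-fold in the mutant line and 20.2-fold in the WT line. Menin covered 100% and 91.1% of its widest H3K4me3 peak. Atr, the DNA damage checkpoint kinase, shares 1 H3K4me3 peak with its neighbour Xrn1. In both lines the peak lies across an end of Xrn1 and past the end of Atr, which it reaches through the 1 kb window. Menin covered 100% of this peak in the mutant line and 91.7% in the WT line.

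The highest Menin values of the WT line stood at Ncln and its neighbour S1pr4, at 17.3-fold in the mutant line and 35.8-fold in the WT line, with a smaller part of H3K4me3 covered, 42.4% and 24.7%. Nek7, a mitotic kinase, had Menin at 31.0-fold in the mutant line and 33.8-fold in the WT line. Menin covered 98.1% and 100% of its widest H3K4me3 peak. Timmdc1, an assembly factor of mitochondrial complex I, stood among the 10 highest in both lines. Its Menin was at 34.6-fold in the mutant line and 33.8-fold in the WT line, with 67.4% and 63.9% covered. Rbck1, a subunit of the linear ubiquitin ligase, had Menin at 36.3-fold in the mutant line and 30.6-fold in the WT line. Its widest H3K4me3 peak was covered to 93.8% and 81.7%. High Menin and full coverage were therefore not the same thing.

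Wide H3K4me3 domains were not covered alike. The widest H3K4me3 peak of the mutant line, 14872 bp at Plec, which encodes the cytoskeletal linker plectin, had 13.1% of its bases covered by Menin. Among the genes whose gene ends had wide H3K4me3 with Menin, Sox2, a transcription factor of stem and neural crest cells, had an H3K4me3 peak of 9728 bp (chr3:34647932-34657659) in the mutant line, of which 5 Menin peaks covered 90.3%. That peak spans the gene, whereas the widest WT peak of Sox2, 2674 bp with 81.2% covered, lies past the gene (chr3:34653293-34655966). Pcdh7, a protocadherin, had 9250 bp and 88.5% covered in the mutant line, and 11067 bp and 90.5% covered in the WT line. Hmga2, an architectural chromatin protein, had a domain of like width, 9381 bp in the mutant line and 8539 bp in the WT line, of which Menin covered 34.8% and 35.3%. Ccnd1, which encodes cyclin D1, had 8982 bp with 32.2% covered in the mutant line and 4611 bp with 14.8% covered in the WT line.

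Some genes with wide or strong H3K4me3 had no Menin peak within 5 kb in 1 or both lines. Vim, which encodes the intermediate filament protein vimentin, had H3K4me3 over 6991 bp (chr2:13573764-13580754) in the mutant line and 4837 bp (chr2:13574381-13579217) in the WT line and no Menin in either. Peaks of 8 of the 12 lists of the mutant line and 7 of the 10 of the WT line lay at its gene ends, H3K4me3 among them, so other antibodies gave peaks where Menin did not. Rin1, a RAS effector, had 3100 bp at 48.3-fold in the mutant line and 3304 bp at 26.0-fold in the WT line without Menin. Rps15a, a ribosomal protein gene, had 5035 bp in the mutant line and 5450 bp in the WT line without Menin. Cd63, a tetraspanin of melanosomes and other vesicles, had H3K4me3 at 34.6-fold in the mutant line and at 30.0-fold in the WT line, without Menin in either line. Ubb, a polyubiquitin gene, had 4133 bp in the mutant line and 2275 bp in the WT line without Menin at its gene ends, though the WT line had a Menin peak within 5 kb. Cd44, the hyaluronan receptor, had H3K4me3 at 18.3-fold in the mutant line and 32.4-fold in the WT line without Menin at its gene ends, though the mutant line had a Menin peak in or within 5 kb of the gene. Hspa5, the main chaperone of the endoplasmic reticulum, had no Menin beside 5115 bp of H3K4me3 in the mutant line, and a Menin peak over 12.8% of 6668 bp in the WT line.

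Some genes carried H3K4me3 in both lines and Menin at their ends in 1 of them, and those named here are among the 10 with the highest Menin fold enrichment. Smc5, a subunit of the SMC5/6 genome maintenance complex, had Menin at 15.1-fold in the mutant line only. Menin covered 96.2% of its widest H3K4me3 peak there. In the WT line only, Lpl, lipoprotein lipase, had Menin at 9.67-fold. Menin covered 52.5% of its widest H3K4me3 peak there, 2053 bp, beside 1241 bp without Menin in the mutant line. Crim1, a transmembrane regulator of BMP signalling, had 4 Menin peaks over 54.0% of 3400 bp in the WT line and none beside 2656 bp in the mutant line.

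Menin at gene ends with no H3K4me3 within 5 kb was found at 13 genes of the mutant line and 31 of the WT line. In the mutant line the highest was Srl, which encodes the muscle calcium store protein sarcalumenin, at 10.5-fold, where the WT line had Menin at 9.75-fold and a weak H3K4me3 peak of 212 bp. In the WT line the highest was Gsto2, a glutathione transferase gene, at 10.1-fold, where the mutant line had Menin at 36.8-fold and an H3K4me3 peak of 937 bp that Menin covered to 99.7%. Tuba3b, an alpha-tubulin gene, had Menin without H3K4me3 in both lines, at 7.11-fold in the mutant line and 8.18-fold in the WT line.

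Gene lists chosen with earlier results of these data known separate by mark, and each count is read against the 37.7% (mutant line) and 31.2% (WT line) of all genes that had both. Among all genes with H3K4me3, 70.1% and 63.3% had Menin. Of 18 COMPASS genes, which encode the H3K4 methyltransferases and their partners, 15 had both marks in the mutant line and 13 in the WT line. H3K4me3 stood at 16 of them in each line. Men1 itself had Menin at 19.8-fold in the mutant line and 16.5-fold in the WT line. Menin covered 55.2% and 12.2% of its widest H3K4me3 peak. Kmt2a, whose product Menin binds, had Menin over 35.5% of 3602 bp in the mutant line and 39.9% of 4586 bp in the WT line. Kdm6a, which encodes UTX, had 90.6% of 3866 bp covered in the mutant line and 77.4% of 4044 bp in the WT line. Hcfc1, a shared subunit, had H3K4me3 without Menin at its gene ends in both lines.

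The genes best known as Menin and KMT2A targets were split. Of 21 genes of the Hoxa and Hoxb clusters, classic targets in leukaemia, 0 had Menin in either line, and H3K4me3 stood at 3 in the mutant line (Hoxa3, Hoxa5 and Hoxa6, the widest peak 503 bp) and at 0 in the WT line. Of 16 other targets known in other tissues, 9 had both marks in the mutant line and 10 in the WT line. H3K4me3 stood at 11 and 12 of them. The cell cycle inhibitors Cdkn1b (p27) and Cdkn2c (p18), which Menin is known to keep active in endocrine tissue, had wide H3K4me3 peaks at a gene end, most of whose bases Menin covered. At Cdkn2c, Menin was at 31.5-fold in the mutant line and 20.7-fold in the WT line. It covered 100% of 5886 bp (chr4:109662051-109667936) in the mutant line and 91.3% of 7315 bp (chr4:109660723-109668037) in the WT line. At Cdkn1b it covered 100% of a 7099 bp peak that begins past the gene (chr6:134926417-134933515) in the mutant line, and 75.2% of a 4917 bp peak across the gene (chr6:134919552-134924468) in the WT line. Cdk6, a cell cycle kinase, had 80.7% of 4995 bp covered in the mutant line and 78.0% of 4788 bp in the WT line. Myb, a transcription factor of blood progenitors, had H3K4me3 and no Menin at its gene ends in both lines.

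Of 22 pigment cell genes, 6 had both marks in the mutant line and 5 in the WT line, a share near that of all genes. Of the pigment cell genes with H3K4me3 these were 6 of 10 and 5 of 8, near the 70.1% and 63.3% of all genes with H3K4me3. Pax3, a neural crest transcription factor, had Menin at 19.0-fold in the mutant line and 19.7-fold in the WT line. Menin covered 86.5% and 80.9% of its widest H3K4me3 peak. Tfap2b, of the AP-2 family, had Menin at 19.1-fold in the mutant line and 20.7-fold in the WT line. Menin covered 61.7% of 5609 bp there in the mutant line and 94.9% of 2350 bp in the WT line. Mitf, the master regulator of melanocytes, had Menin at 4.82-fold in the mutant line and H3K4me3 alone in the WT line. Menin covered 12.1% of its widest H3K4me3 peak in the mutant line. Sox10 had 2978 bp of H3K4me3 and no Menin at its gene ends in the mutant line and neither mark in the WT line. Of 20 mesenchymal state genes, 14 had both in the mutant line and 13 in the WT line. Of those with H3K4me3 these were 14 of 20 and 13 of 18, beside the 70.1% and 63.3% of all genes with H3K4me3. Menin covered 97.9% and 70.3% of the widest H3K4me3 peak at Foxd3, and 0% at Vim in both lines.

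Housekeeping lists differed in how much of their H3K4me3 Menin covered. All 21 ribosomal protein genes had H3K4me3 in both lines, and 18 also had Menin in the mutant line and 12 in the WT line. Their median H3K4me3 width was 2121 bp in the mutant line and 2349 bp in the WT line, above the 1669 bp and 1717 bp of all H3K4me3 genes, but Menin covered a median of 23.4% and 6.21% of it, below the 39.0% and 26.5% of all H3K4me3 genes. All 97 Rpl and Rps genes, taken by symbol after the data were seen, gave 25.8% and 11.6% over the 84 and 85 of them that had H3K4me3. Of 22 proteasome genes, 20 had both marks in the mutant line and 14 in the WT line, with 47.6% and 33.6% of H3K4me3 covered in the median. H3K4me3 stood at 21 of them in each line. Among all genes with H3K4me3, 70.1% and 63.3% had Menin. Psmb1, a subunit of the core particle, had Menin at 24.1-fold in the mutant line and 22.0-fold in the WT line. Of 63 replication-dependent histone genes, a family taken by symbol after the data were seen, 58 had both in the mutant line and 44 in the WT line. H3K4me3 stood at 60 of them in each line, and Menin covered a median of 75.8% and 44.1% of it. These genes sit close together, so many share a peak.

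Silent genes had neither mark in most cases. Of 24 developmental regulators, 3 had both in the mutant line and 2 in the WT line. Isl1, a LIM homeobox gene, had Menin at 12.9-fold in the mutant line, where 63.4% of 3132 bp of H3K4me3 was covered. The WT line had 354 bp of H3K4me3 without Menin at the gene ends of Isl1. Of 12 silent tissue-restricted genes, 0 had both in the mutant line and 1 in the WT line (Apoa2). This difference comes from the gene-end window: in the mutant line Menin covered 22.6% of the widest H3K4me3 peak of Apoa2, 2007 bp, and in the WT line 28.7% of 2065 bp. Of 19 genes of other cell types, 2 had both in the mutant line and 1 in the WT line, and Cd68, a macrophage gene, had Menin only in the mutant line at 8.25-fold. Of 1110 olfactory receptor genes, taken by symbol after the data were seen, 0 had either mark in either line.

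**Figure D5:**
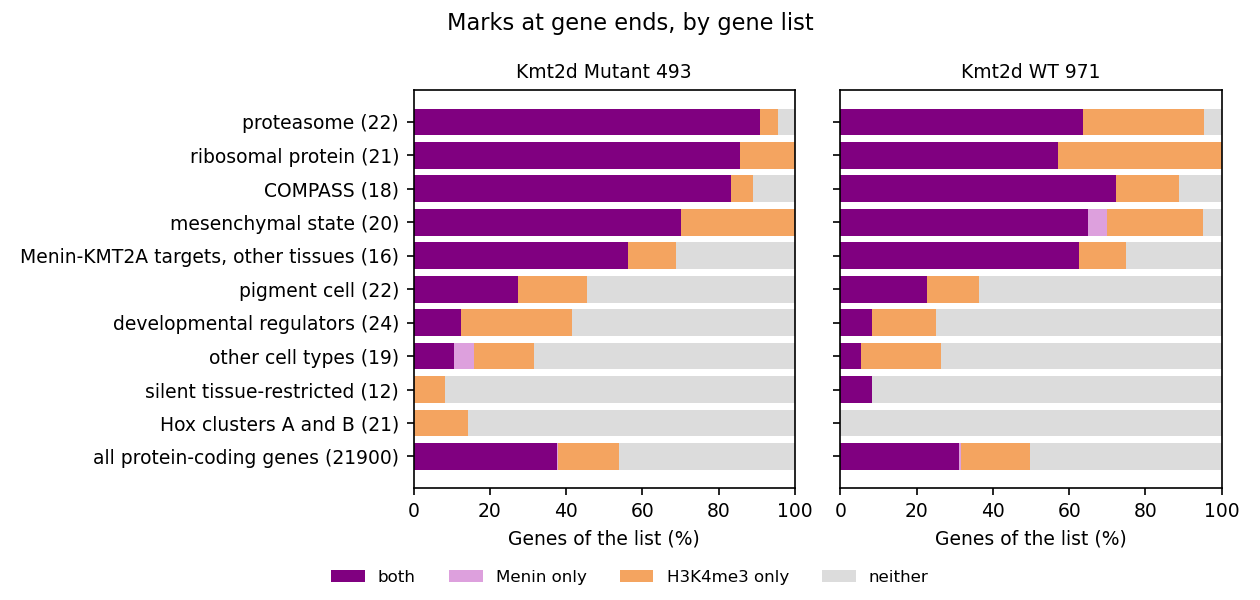
Share of the genes of each list (horizontal axis, percent, number of genes in brackets) with both marks, Menin only, H3K4me3 only or neither at a gene end, mutant line left and WT line right. The bottom bar is all 21900 protein-coding genes, of which 37.7% (mutant) and 31.2% (WT) had both.

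The other libraries of each line give a readout that the split by Menin did not use. ARID1A, a subunit of the SWI/SNF chromatin remodeller, overlapped 42.4% of H3K4me3 peaks with Menin and 13.3% of those without Menin in the mutant line, and 33.3% and 12.3% in the WT line. At like H3K4me3 fold enrichment these shares were 41.5% and 14.3% in the mutant line and 34.3% and 12.3% in the WT line, so the gap was about as large. UTX, the demethylase of the KMT2D complex, overlapped 18.7% of peaks with Menin and 4.56% without Menin in the mutant line, and 23.5% and 8.79% in the WT line. KMT2D, read in the WT line, overlapped 21.2% with Menin and 6.97% without Menin. TFAP2A, a transcription factor of the neural crest and skin, overlapped 64.0% and 29.1% in the mutant line and 49.6% and 24.6% in the WT line. For TFAP2A the gap narrowed at like H3K4me3 fold enrichment, to 57.4% and 39.1% in the mutant line and 46.0% and 28.7% in the WT line.

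SOX10, read in the mutant line with the antibody labelled U, overlapped 8.55% of H3K4me3 peaks with Menin and 2.10% without Menin. SMARCC1, another SWI/SNF subunit, overlapped few of them, 1.26% with Menin and 0.769% without Menin in the mutant line and 5.95% and 3.50% in the WT line. ARID2 lists were short. They overlapped 1.81% with Menin and 0.865% without Menin in the mutant line, and 1.77% and 1.51% in the WT line. At like fold enrichment the ARID2 shares were 1.58% and 1.16% in the mutant line and 1.71% and 1.84% in the WT line. H3K4me3 peaks with Menin were wider than those without Menin, also at like fold enrichment, and a wider peak offers more bases to touch. How far this width, the quality of the antibodies and the length of each list enter these shares was not tested.

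Seen from Menin, several of these libraries were ordered the other way and others were not. ARID1A overlapped 30.8% of Menin peaks with H3K4me3 and 46.3% of those without it in the mutant line, and 26.6% and 51.2% in the WT line. UTX overlapped 13.5% with H3K4me3 and 27.2% without it in the mutant line, and 18.4% and 33.5% in the WT line. SMARCC1 overlapped 0.932% with H3K4me3 and 8.53% without it in the mutant line, and 4.85% and 30.0% in the WT line. KMT2D overlapped 16.3% with H3K4me3 and 24.4% without it in the WT line. TFAP2A overlapped more with H3K4me3, at 47.3% with it and 24.8% without it in the mutant line, and 37.7% and 22.7% in the WT line. TFAP2B, read in the mutant line, had 29.9% with H3K4me3 and 12.9% without it. PBRM1, a SWI/SNF subunit with a short list, had 2.31% and 0.716% in the mutant line and 2.34% and 0.176% in the WT line, and ARID2 had 1.21% and 1.23% in the mutant line and 1.49% and 1.54% in the WT line. Menin fold enrichment had a median of 7.11 with H3K4me3 and 5.40 without it in the mutant line. In the WT line these medians were 7.14 and 5.58. Of Menin peaks with H3K4me3, 14.7% (mutant line) and 15.8% (WT line) lay beyond 5 kb from any gene end. Without H3K4me3 these shares were 60.6% and 65.0%. How far position, strength and width enter the shares of the other libraries was not tested.

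H3K4me3 peaks found in both lines had Menin more often than those found in 1. Of the H3K4me3 peaks of the mutant line that overlapped one of the WT line, 71.9% had Menin (9423 of 13113), against 23.2% of those in the mutant line only (770 of 3325). Of the WT peaks, 60.2% of the shared ones (8090 of 13442) and 38.0% of the WT-only ones (465 of 1224) had Menin. Peaks in 1 line only were narrow, with medians of 448 bp with Menin and 406 bp without Menin in the mutant line and 427 bp and 352 bp in the WT line.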

How the data were processed

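CUT&RUN peak lists of Menin and H3K4me3 were used, with the other lists of the same line as a further readout. Per the submitters' processing notes, FastQC, MultiQC, Bowtie2 and MACS2 were used on mm10. Versions, settings and the control are not given in the sources used here, nor is any pooling. Each peak carries the authors' fold enrichment at the summit (a ratio), the authors' −log10 p and −log10 q, and a deposited score, which follows 10 times the −log10 q.

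Overlap was at least 1 bp between lists of 1 line. The RefSeq table of GRCm38.p6 gave 21900 protein-coding genes. A promoter sequence was matched for 17492, or 79.9%, so CpG is given only for genes with H3K4me3, of which over 80% matched in each line. For values at like fold enrichment, H3K4me3 peaks with and without Menin were both reweighted to the list's share of peaks in 10 classes of fold enrichment. The most frequent background of each list was solved from fold enrichment and −log10 p. Depth was taken from it with the caller's default mouse genome size and the shortest peak as fragment length. Median fragments at the summit were taken from fold enrichment and that 1 background, which fitted 55.1 to 58.5% of the peaks of a list. Thinning solved fragments and background for each peak and scaled both by the depth ratio. It dropped peaks under the lowest −log10 p of the WT list.

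The members, gene lists and tests were chosen with earlier results of these data known. Named genes are up to 10 per line for each of 6 orders (Menin fold enrichment, H3K4me3 width, Menin without H3K4me3, H3K4me3 without Menin by strength and by width, and Menin in 1 line only), plus list members. With 1 library per target, no test was run. Overlap steps were checked on simulated intervals. Scripts ran on Python 3.11.15 with pandas 2.3.3, NumPy 2.4.6 and SciPy 1.17.1, and figures were drawn with Matplotlib 3.10.9. Some items are not reported here.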

Additional observations from a re-analysis of the deposited data

How the results depend on the processing

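No paired analysis was possible because each line and target had 1 library, and no replicate could be left out. Values are given for the mutant line and then the WT line. With at least 50% of the peak covered, 37.0% and 31.5% of H3K4me3 peaks had Menin, 77.6% and 72.8% of Menin peaks had H3K4me3, and the width ratio was 1.55 and 1.33. With the summit inside the other peak these were 43.1% and 38.1%, 77.3% and 71.4%, and 1.65 and 1.45. At a −log10 q of at least 5 in all lists they were 53.9% and 53.1%, 86.4% and 77.8%, and 1.73 and 1.58, and 58.9% and 54.3% of H3K4me3 genes had Menin. With the 13481 top peaks of each list they were 62.6% and 61.0%, 82.0% and 76.8%, and 1.74 and 1.78, and 66.6% and 64.4% of genes, so the order of the lines in the width ratio turned. With peaks within 1 kb joined they were 64.3% and 60.5%, 83.6% and 79.5%, and 2.20 and 1.97. A 2.5 kb window gave 72.1% and 66.6% of genes, and the start alone 71.7% and 63.8%. Thinning of the mutant lists, chosen after seeing the data, kept 12693 Menin and 15811 H3K4me3 peaks and gave 54.9%, 86.2%, a ratio of 2.09 and 61.9% of genes in the mutant line. The cause of these moves was not tested, apart from the stricter overlap and the shorter lists, which lower the counts by construction. The ratio stayed above 1 in all of these. H3K4me3 peaks had more fragments at the summit than Menin peaks, 19.1 against 6.97 in the mutant line and 12.2 against 6.62 in the WT line in the median, so a missing Menin peak is not evidence of no Menin.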
